A study of Homo sapiens with 36 samples.

Results

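The Polysome1 fraction of a polysome gradient was compared between HUES6 cells that were unmodified (WT) and HUES6 cells carrying a knockout of RBPMS (KO). HUES6 is an established human embryonic stem cell line. Transcripts were followed if they reached 10 TPM in at least 3 of the 6 Polysome1 libraries, 3 WT and 3 KO. TPM is an abundance per transcript length, scaled so that each library sums to 1000000. By this rule 8830 of the 223367 Ensembl transcripts of the table were kept, or 3.95%, and they are called the members here. All cells of both genotypes were grown in FTDA medium and received 100 ng/ml cycloheximide for 5 min before lysis, and both genotypes carry the treatment label control. RNA was extracted with Trizol, equal amounts entered stranded poly(A) libraries, and paired reads of 75 nt were sequenced, per the labels. The labels do not say how the knockout was made, or whether the 3 KO cultures share a clone, so p-values measure the spread between these samples only.

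Polysome profiling separates RNA by the number of ribosomes it carries. Free 40S subunits and 80S monosomes stay near the top of the gradient, and mRNAs with more ribosomes sediment further. RBPMS is an RNA-binding protein of the RRM family that binds mRNA and regulates splicing, transport and translation. The comparison asks which mRNAs change in their share of a polysome fraction when it is lost. Because equal RNA entered each library, a value gives the share of a transcript in the fraction and not its amount per cell. In such bulk samples fewer loaded copies and less RNA per cell cannot be told apart.

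The table pairs no transcript ID with a gene, and the gene table used for naming, with 59792 genes, held 0 Ensembl IDs. No member was given a gene name, and RBPMS, the pluripotency markers and the pathway lists were not analysed here. The knockout and the cell type therefore rest on the labels. The labels number the polysome fractions and do not give their place in the gradient. Over the members, WT Polysome1 libraries 1 to 3 correlated with the WT disome mean at 0.895, 0.882 and 0.845 and with the WT Polysome2 mean at 0.774, 0.781 and 0.786 (Pearson's r of log2(TPM + 1)). These correlations run across transcripts, which are not independent replicates, and libraries of one culture share their source. Sequencing depth is unknown, since TPM keeps no record of it.

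The 6 libraries did not fall into their genotypes as 3 and 3. The r between WT libraries was 0.909 for replicates 1 and 2, 0.870 for 1 and 3, and 0.889 for 2 and 3. KO replicates 1 and 2 correlated at 0.923 with each other, and at 0.514 and 0.585 with KO replicate 3. KO replicate 3 correlated with the 3 WT libraries at 0.831, 0.839 and 0.761, while KO replicates 1 and 2 did so at values from 0.268 to 0.404. KO replicates 1 and 2 stood apart from the other 4 libraries. KO replicate 3 lay nearer to WT than to them, though each of its r with WT was below every r between WT libraries. The median SD of a member between replicates, on the log2(TPM + 1) scale, was 0.35 in WT and 0.98 in KO, and 0.40 between KO replicates 1 and 2 alone.

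The same division showed in how many members a library held. In WT replicates 1 to 3, 7935, 7909 and 7209 of the 8830 members reached 10 TPM. In KO the numbers were 4779, 5503 and 8093. Members listed at 0 numbered 39, 42 and 102 in WT and 1020, 798 and 22 in KO. KO replicates 1 and 2 lacked many members that WT held, and KO replicate 3 held slightly more than any WT library. The rule forces part of this, since WT and KO replicate 3 can pass a transcript without KO replicates 1 and 2. KO replicates 1 and 2 cannot pass one alone. Over all transcripts, 9125, 8648 and 8219 reached 10 TPM in WT and 6825, 7152 and 9272 in KO. In each library the members made up most of the RNA, at 89.5%, 90.9% and 90.2% of TPM in WT and 86.1%, 88.6% and 89.9% in KO. The spike-in rows of the External RNA Controls Consortium (ERCC) summed to 16.1, 8.07 and 4.52 TPM in WT Polysome1 and to 353, 260 and 46.4 TPM in KO, without overlap between genotypes. Those totals move with the genotype and within KO with the same division of the replicates, and their part in the differences below was not tested.

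Over all transcripts most measures of the composition of the libraries overlapped between genotypes. Transcripts at 1 TPM or more numbered 31091 ± 1276 in WT and 24467 ± 5565 in KO (SD, n = 3, two-sided exact permutation p = 0.2, adjusted 0.4 over 5 measures). The 10 most abundant transcripts took 7.60% ± 1.07 of WT and 10.6% ± 4.08 of KO libraries (SD, n = 3, exact permutation p = 0.4, adjusted 0.4), and the 100 most abundant 29.3% ± 2.70 and 35.6% ± 7.69 (exact permutation p = 0.4, adjusted 0.4). Transcripts at 10 TPM or more numbered 8664 ± 453 and 7750 ± 1328 (SD, n = 3, exact permutation p = 0.4, adjusted 0.4). The ERCC totals gave p = 0.1 in the exact permutation test of log2 values (adjusted 0.4), the smallest p that 3 against 3 allows. The most abundant transcripts of KO replicate 1 were largely others than those of WT, with 1 of its 10 most abundant members among the 10 of WT replicate 1. The same held for KO replicate 2, with 1 of 10, and KO replicate 3 shared 5 of 10. The 10 most abundant members of KO replicate 1 had a median of 13441 TPM there, 9060 TPM in KO replicate 2, 1091 TPM in KO replicate 3, and 282, 342 and 289 TPM in the WT libraries.

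Each member was then set against the WT mean. The rule for members, as described above, lowers the values of KO replicates 1 and 2 in this comparison too. In KO replicate 1 the median member lay 1.36 below WT on the log2(TPM + 1) scale (median -1.36, quartiles -3.29 and 0.46), with 1708 members at least 2-fold above WT and 4884 at least 2-fold below. In KO replicate 2 the median was -0.85, with 1766 above and 4184 below by that fold. KO replicate 3 differed, with a median of 0.14, 1468 members above and 711 below. For scale, each WT library was set against the other 2 WT libraries: medians were 0.07, 0.08 and -0.20, with 801, 462 and 325 members above and 224, 222 and 1075 below. KO replicate 3 thus had more members above the fold than any WT library, and fewer below it than WT replicate 3. Differences of at least 16-fold downwards numbered 1364 and 1060 in KO replicates 1 and 2, and 25 in KO replicate 3.

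**Figure D1:**
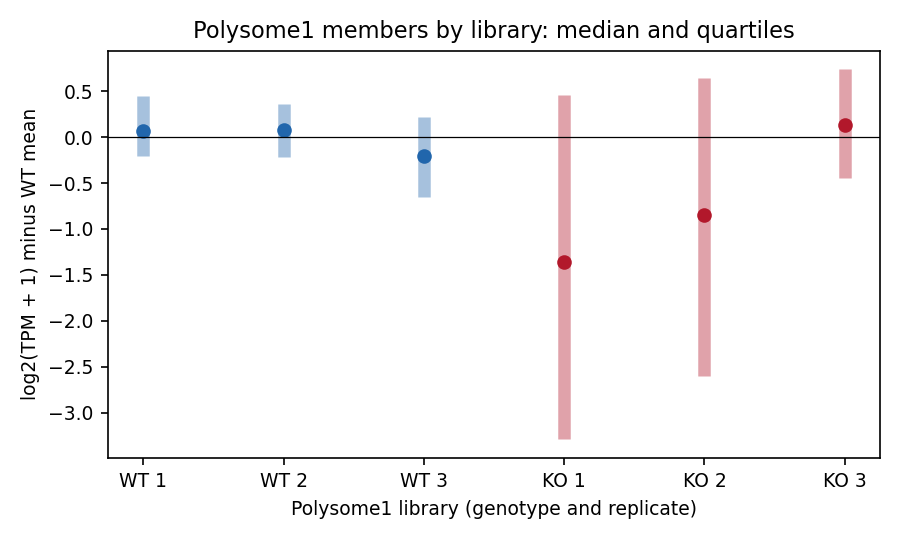
Difference of the 8830 members from WT in each Polysome1 library, in log2(TPM + 1); points are medians and bars run from the lower to the upper quartile. WT libraries (blue) are set against the other 2 WT libraries and KO libraries (red) against the 3 WT libraries; KO 1 and KO 2 have medians of -1.36 and -0.85, and KO 3 lies at 0.14.

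KO was compared with WT by limma, a linear model with moderated variances, on log2(TPM + 1) over 51052 transcripts, all 8830 members included. The model took its spread per transcript from all 36 libraries of the series. A transcript was called at a Benjamini-Hochberg adjusted p under 0.05 over the 51052. Of the members, 229 rose and 239 fell in KO Polysome1, or 2.59% and 2.71%. Among all tested transcripts 5.42% were called, 1.58% higher and 3.84% lower, so the 5.30% called among members is close to that background. The median log2 difference was 2.58 for the members that rose and -3.30 for those that fell, against -0.74 over all members and -0.32 over all tested transcripts. With the 6 Polysome1 libraries alone, which leave 4 residual degrees of freedom in place of 24, limma called 0 members (0% of all tested), with a lowest adjusted p of 0.08545. At an unadjusted p under 0.05 there were 3412 members in that fit and 3113 in the fit to all libraries. With KO replicates 1 and 2 left out, 10 members were called. Each single culture moved the count as well: 38, 5 and 4373 members were called without KO replicates 1, 2 and 3, and 58, 35 and 58 without WT replicates 1, 2 and 3.

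The balance between members that rose and fell depended on the scaling, among other settings. With a pseudocount of 0.1, 61 members were higher and 27 lower. The share of lower calls among members was 51.1% as deposited, 64.1% after median-of-ratios scaling (71 higher, 127 lower) and 99.7% after scaling to the ERCC total (21 higher, 8168 lower). These scalings moved the median of all tested transcripts from -0.32 to -0.22 and -3.01, and quantile normalization moved it to 0.00. Of the 229 members that rose, all 229 kept a positive difference under quantile and median-of-ratios scaling, and 42 did under ERCC scaling. The 239 that fell had a negative difference under all 3.

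**Figure D2:**
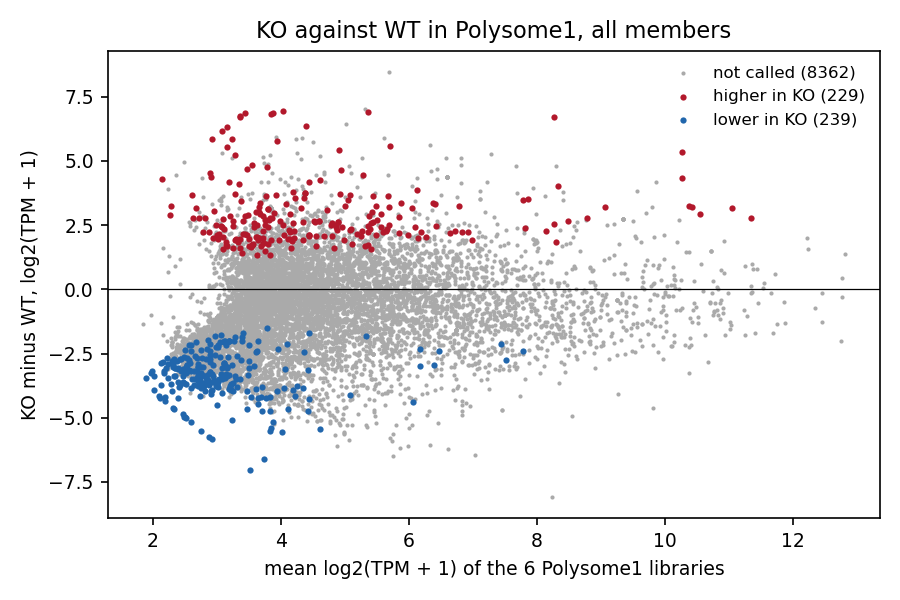
KO minus WT difference of each member (vertical axis, log2(TPM + 1)) against its mean over the 6 Polysome1 libraries (horizontal axis, same scale). Of 8830 members, 229 were called higher (red) and 239 lower (blue); grey points were not called.

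The values in single libraries show what lay behind the calls. The 229 members that rose had medians of 7.16, 7.94 and 5.23 TPM in WT and 93.1, 57.2 and 23.1 TPM in KO replicates 1 to 3. Their summed share of the library was 0.703%, 0.706% and 0.714% in WT, and 15.9%, 9.78% and 2.42% in KO. The summed KO values all lay above WT, with KO replicate 3 nearest to it. A few members made up much of this: the 5 most abundant of the 229 took 8.98% of KO replicate 1, 4.77% of KO replicate 2 and 1.09% of KO replicate 3, and between 0.282% and 0.357% of the WT libraries. The 239 that fell had medians of 20.9, 21.0 and 24.1 TPM in WT and 0.0625, 0.168 and 6.55 TPM in KO. In KO replicates 1 and 2, 187 and 170 of the 239 lay below 1 TPM, against 24 in KO replicate 3 and 0 in each WT library. Relative to the WT mean, the members that rose were higher by a median of 3.38, 2.72 and 1.60 on the log2 scale in KO replicates 1, 2 and 3, and those that fell lower by medians of -4.16, -4.05 and -1.50. KO replicate 3 lay above all WT values in 228 of the 229 and below them in 238 of the 239. The calls use all 3 KO values, so they favour members in which KO replicate 3 went with KO replicates 1 and 2. Without KO replicate 3, 4373 members were called. Its agreement in the called members is thus in part a result of the choice. The value of KO replicate 3 was the lowest of the 3 KO values in 211 of the 229 and the highest in 232 of the 239.

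Counting members whose 3 KO and 3 WT values did not overlap gave a larger set. KO lay above WT in 1506 members (17.1%) and below in 2401 (27.2%), against 9.17% and 19.6% of all tested transcripts, and 4923 members overlapped. The rule itself forces part of this. A member with 10 TPM in all WT libraries and in no KO library passed through WT alone, and there were 495 of these. Another 351 passed through KO alone, and 7984 had 10 TPM in at least 1 library of each genotype. The higher set had medians of 14.1, 15.3 and 11.2 TPM in WT and 56.0, 48.9 and 28.2 TPM in KO, and the lower set 40.5, 39.0 and 40.7 TPM in WT and 3.29, 5.34 and 23.5 TPM in KO. In both sets KO replicate 3 had the KO median nearest to WT. With KO replicates 1 and 2 alone, 1969 members lay above all WT values and 4896 below.

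Members at 10 TPM in all 6 libraries numbered 3286. Asking for 10 TPM in each KO library removes members that fell far, so these values describe the selection. They had a median log2 difference of -0.07. Of them 60 rose (1.83%) and 7 fell (0.213%), against 1.58% and 3.84% of all tested transcripts, so the rises are close to that background. Without overlap, 744 of the 3286 lay above WT and 696 below, where 9.17% and 19.6% of all tested transcripts did. The median levels of the 3286 were 57.5, 57.1 and 48.9 TPM in WT and 45.0, 51.1 and 64.6 TPM in KO. The median differences from WT were -0.33, -0.11 and 0.21 in KO replicates 1 to 3. The median difference of these 3286 turned to 0.05 under quantile normalization and 0.06 under median-of-ratios scaling.

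Some members were listed at 0 in both KO replicates 1 and 2, and the rule then asks for 10 TPM in at least 3 of the other 4 libraries. There were 602 such members, of which 502 had 10 TPM or more in all 3 WT libraries. Of the 502, 360 also had 10 TPM or more in KO replicate 3. Their medians were 24.0, 24.7 and 25.8 TPM in WT and 18.2 TPM in KO replicate 3. The test called 83 of the 502 lower, or 16.5%, against 3.84% of all tested transcripts. The 502 were chosen as high in WT and at 0 in KO replicates 1 and 2, so the choice itself favours lower calls. In Input their medians were 20.7, 22.1 and 19.8 TPM in WT, 0 and 0.626 TPM in KO replicates 1 and 2, and 16.7 TPM in KO replicate 3, so the same pattern was present in the unfractionated RNA of these cultures. A listed 0 is an estimate and does not show that a transcript is absent. Members listed at 0 in all 3 KO libraries numbered 11 and in all 3 WT libraries 6. All of both were called; having passed the rule through the other genotype, they had to differ.

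Transcripts are shown by ID, 2 that rose and 2 that fell, as those with the largest differences among called members without overlap. ENST00000579468.1 was listed at 0, 2.21 and 0 TPM in WT Polysome1 and at 476, 326 and 36.5 TPM in KO. All KO values lay above all WT values, with KO replicate 3 the lowest of the 3. The log2 difference was 6.93 (SE 2.02, limma adjusted p = 0.04405), with an adjusted p of 0.1015 from the 6 Polysome1 libraries alone. In KO replicate 3 alone it was 4.67 (SE 2.91, limma adjusted p = 0.7381). In WT the transcript was listed at 0 in all Input and all Polysome2 libraries, and at 0, 0 and 456 TPM in 40S. WT 80S held 26.0, 0 and 29.1 TPM. WT disome held 0, 28.5 and 128 TPM, overlapping KO disome at 41.6, 353 and 12.7 TPM.

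ENST00000387460.2 stood at 3.35, 0 and 11.3 TPM in WT Polysome1 and at 873, 845 and 118 TPM in KO. The groups did not overlap. The log2 difference was 6.88 (SE 1.60, limma adjusted p = 0.01814), and 0.1096 was the adjusted p from the 6 libraries alone. WT cultures held this transcript elsewhere in the gradient, at 197, 169 and 5652 TPM in 40S and at 89.1, 53.3 and 162 TPM in 80S. In WT its lowest levels were those of the polysome fractions, with 4.52, 2.75 and 13.7 TPM in Polysome2 beside 1 disome library at 0. In KO Polysome2 it stood at 1008, 1338 and 42.3 TPM (log2 difference 5.85, limma adjusted p = 0.03132). With KO replicate 3 alone in Polysome1 the difference was 4.98 (SE 2.34, limma adjusted p = 0.6136).

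ENST00000474657.5 stood at 93.8, 118 and 198 TPM in WT Polysome1, and all 3 KO libraries listed it at 0. It fell without overlap. The log2 difference was -7.03 (SE 1.36, limma adjusted p = 0.006129; 0.08545 from the 6 libraries alone). It was the same size in KO replicate 3 alone, without a call (SE 2.16, limma adjusted p = 0.3143). In Input it stood at 155, 120 and 88.4 TPM in WT and at 0, 0 and 63.9 TPM in KO. KO culture 3, as titled, therefore held the transcript in unfractionated RNA and listed it at 0 in 80S, disome, Polysome1 and Polysome2. The description of its Input library is written otherwise than those of the other Inputs. That this Input belongs to the same preparation rests on the title. The difference between Polysome1 and Input was -2.14 and did not pass the test (SE 1.92, limma adjusted p = 0.7489).

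ENST00000526811.4 was abundant in WT Polysome1, with 104, 177 and 121 TPM. The KO libraries had 0, 0 and 1.46 TPM, and it fell without overlap. The log2 difference was -6.61 (SE 1.20, limma adjusted p = 0.004087; 0.08608 from the 6 libraries alone). This call held in KO replicate 3 alone (log2 difference -5.74, SE 0.71, limma adjusted p = 0.00174). In Input it stood at 30.8, 46.7 and 33.7 TPM in WT and at 0, 0.560 and 52.2 TPM in KO, so KO replicate 3 was above WT there. Polysome2 held 147, 101 and 46.4 TPM in WT and 0, 0 and 83.8 TPM in KO. Within KO culture 3 the transcript was thus at 1.46 TPM in Polysome1 and at 83.8 TPM in Polysome2, with 1 library each. WT disome listed it at 0 in all 3 libraries. In the fit to all libraries its Polysome1 difference was not separated from those in other fractions. The departure was -2.26 from Polysome2 (SE 1.69, not called). It was -3.51 from Input (SE 1.69, limma adjusted p = 0.3905) and -6.70 from disome (SE 1.69, limma adjusted p = 0.8551).

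**Figure D3:**
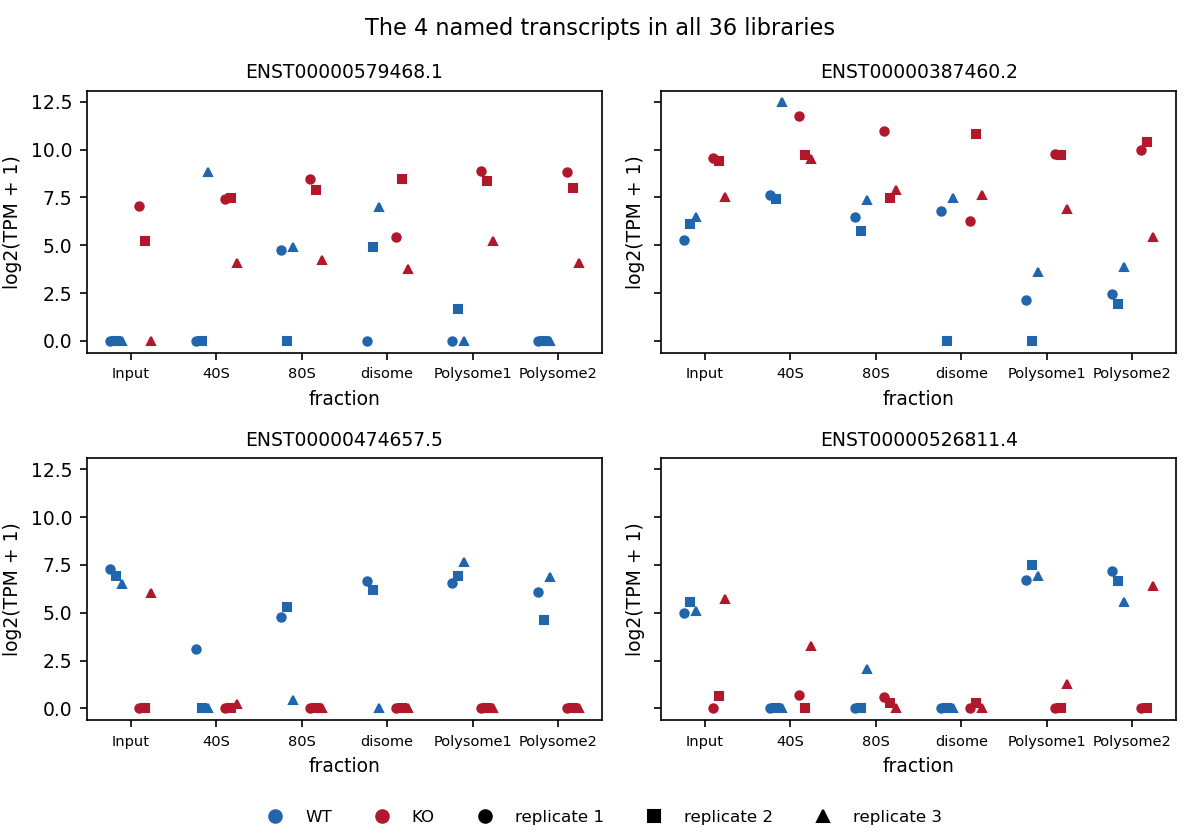
Levels of the 4 transcripts in all 36 libraries, as log2(TPM + 1) by fraction; colour gives the genotype and the marker shape the replicate. In Polysome1 the 3 KO values lie above the 3 WT values for ENST00000579468.1 and ENST00000387460.2 and below them for ENST00000474657.5 and ENST00000526811.4.

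With KO replicates 1 and 2 left out, the comparison describes KO replicate 3 against WT, and that library is assumed to vary like the other groups. In that fit 3 members were higher and 7 lower, against 0.188% of all tested transcripts called, and 9 of the 10 were also called with all cultures, in the same direction. The 7 lower members had medians of 29.3, 25.9 and 31.7 TPM in WT and 0.279, 0.205 and 0.908 TPM in KO, so all 3 KO libraries were low. The 3 higher had medians of 2.59, 2.74 and 4.02 TPM in WT and 20.9, 17.1 and 19.6 TPM in KO. The distance of KO replicate 3 from WT is what chose these members.

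The difference of a member in KO Polysome1 went with its WT 40S level relative to WT Input, mainly in KO replicates 1 and 2. Input is unfractionated, so this grouping gives no place in the gradient. Members were divided by their WT 40S level against their WT Input level, from libraries other than Polysome1 of the same WT cultures. In 861 members the WT 40S mean lay at least 1 log2 unit above Input. Of these, 52 rose (6.04%) and 0 fell, with a median difference of 1.36. Among all tested transcripts 1.58% rose and 3.84% fell. Their medians were 19.5, 24.4 and 14.8 TPM in WT Polysome1 and 67.6, 73.2 and 33.0 TPM in KO. In WT Input these members were low, with medians of 1.17, 2.39 and 1.43 TPM. In the 5423 members at least 1 unit lower in 40S than in Input, 92 rose and 188 fell, with a median of -1.10, and the 2546 between had 85 rises, 51 falls and a median of -0.55. The order was steep in KO replicates 1 and 2, from 1.71 and 1.76 for the 40S-rich members to -1.91 and -1.31 for the 40S-poor members. In KO replicate 3 the medians were 0.64, 0.02 and 0.10 in the same order. The order was not limited to Polysome1: in Polysome2 the 3 groups had medians of 1.86, -0.01 and -1.10. In Input, whose WT values define the groups, they were 2.41, 0.12 and -1.08.

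The 40S-rich members depend in part on WT replicate 3. Without that culture the median of the 666 members so defined was 0.71, and 1.42 and 1.40 without WT replicates 1 and 2. Among members at 10 TPM in all 6 libraries the 409 that were 40S-rich had a median of 0.85, against -0.20 and -0.17 for the 1052 between and the 1825 that were 40S-poor. Quantile and median-of-ratios scaling gave medians of 1.47 and 1.44 for the 861, and ERCC scaling turned the sign, to -2.79, where the 40S-poor members lay at -5.06.

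Members rich in WT Polysome2 relative to WT Input also stood higher in KO Polysome1 than the rest. The 2859 members at least 1 log2 unit higher in WT Polysome2 than in WT Input had a median difference of 0.06. Of them 126 rose (4.41%) and 22 fell (0.77%), against 1.58% and 3.84% of all tested transcripts. The 5210 within 1 unit had a median of -1.04, with 82 rises (1.57%) and 188 falls (3.61%), close to those shares. The 761 at least 1 unit lower had -1.28, with 21 rises (2.76%) and 29 falls (3.81%). All 3 KO libraries kept this order, from -0.36, 0.15 and 0.50 for the first group to -2.01, -1.50 and -0.21 for the last. Under quantile and median-of-ratios scaling the first group had medians of 0.23 and 0.18 and the last -1.01 and -1.12, and under ERCC scaling -4.05 and -5.20. With WT 80S in place of WT Input the order was not kept, with medians of -0.60, -0.96 and -0.62 from rich to poor members. In KO replicates 1 and 2 the rich members then lay below the poor ones, at -1.35 and -0.73 against -0.97 and -0.67. In KO replicate 3 they lay above, at 0.39 against -0.09.

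**Figure D4:**
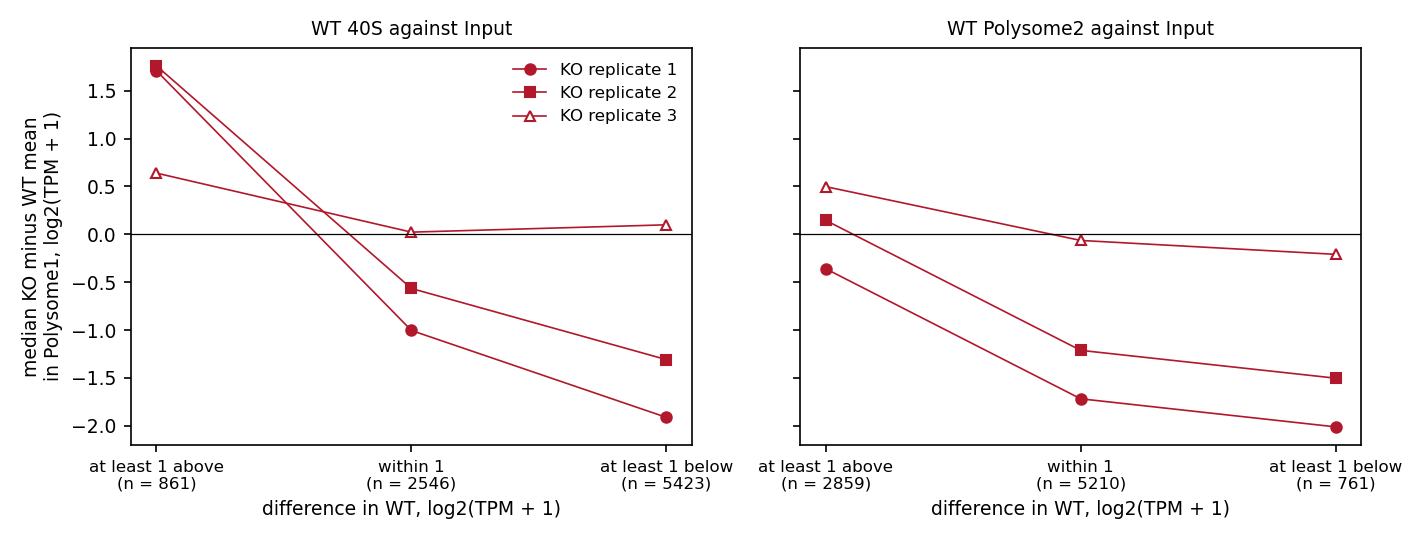
Median KO minus WT difference in Polysome1, in log2(TPM + 1), of members grouped by their WT 40S level (left) or WT Polysome2 level (right) against WT Input; each line is 1 KO library and the numbers of members stand under the axis. KO replicates 1 and 2 fall from 1.71 and 1.76 to -1.91 and -1.31 on the left, and KO replicate 3 (open triangles) has 0.64, 0.02 and 0.10 from left to right.

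KO Polysome1 replicates 1 and 2 also had a higher r with the WT 40S, 80S and disome means than with the WT Polysome1 mean. The rule selects members by their Polysome1 level, and KO replicates 1 and 2 cannot pass a transcript alone. Most members are thus held above the threshold in WT Polysome1, while the other WT fractions are free to vary. Such a narrowed range can lower r, and its part was not tested. The order of these values therefore does not show a shift towards lighter fractions. Over the members, KO replicate 1 correlated with the WT Polysome1 mean at 0.340 and with the WT 40S, 80S and disome means at 0.474, 0.453 and 0.475. KO replicate 2 did so at 0.397 against 0.503, 0.501 and 0.535. KO replicate 3 was closest to WT Polysome1, at 0.849, and each WT library was closest to the mean of the other WT Polysome1 libraries, at 0.893 to 0.928. Each library was also set against other fractions of its own culture. KO Polysome1 replicates 1 and 2 correlated with their own Input at 0.882 and 0.824, with KO replicate 3 at 0.763 and the WT cultures at 0.728, 0.715 and 0.736. With their own Polysome2 the values were 0.967, 0.962 and 0.881 in KO and 0.754, 0.711 and 0.862 in WT. With their own disome they were 0.859, 0.970 and 0.939 in KO and 0.924, 0.924 and 0.704 in WT.

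**Figure D5:**
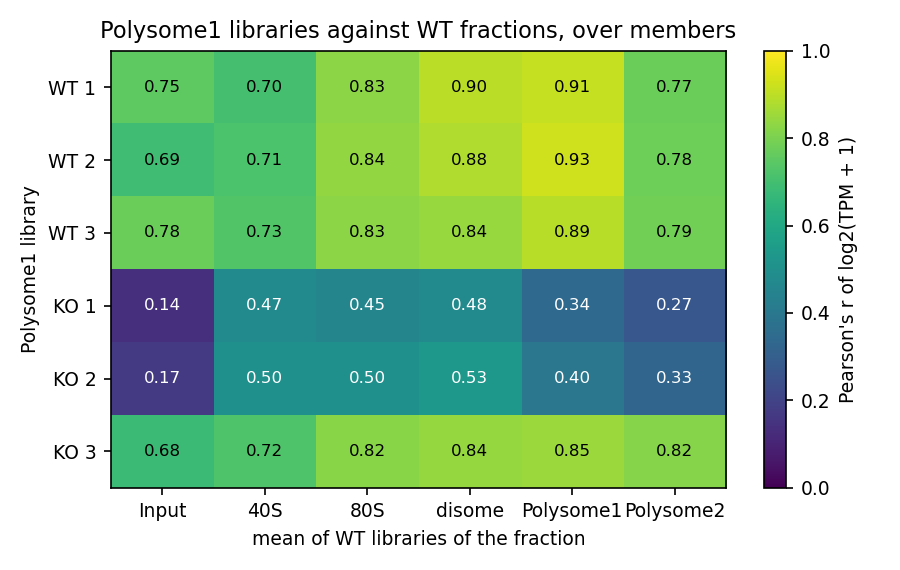
Pearson's r of log2(TPM + 1) over the 8830 members between each Polysome1 library (rows) and the mean of the WT libraries of each fraction (columns), with a WT library left out of its own mean. KO 1 and KO 2 reach at most 0.48 and 0.53, with the WT disome mean, and KO 3 reaches 0.85 with WT Polysome1.

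The members called in Polysome1 were read in the other fractions of the same cultures. Those libraries enter the fit through its estimate of the spread, and not through the Polysome1 difference. Of the 229 that rose, the KO minus WT difference in Input was positive for 203 (88.6%). In 40S it was positive for 211, in 80S for 227, in disome for 204 and in Polysome2 for 228. The shares over all members were 33.6%, 54.5%, 38.8%, 16.9% and 35.4%. The median differences of the 229 ran from 0.93 in disome to 1.99 in Polysome2, with 1.70 in Input. Of the 239 that fell, 3, 42, 4, 1 and 3 were positive, with medians of -1.93, -0.52, -1.87, -2.41 and -2.20. The sign in Polysome1 was thus mostly the sign in the other fractions, which come from the same cultures and are no further replicates. Under ERCC scaling the sign of most members that rose turns, as given above.

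Whether the difference in Polysome1 departed from that in another fraction was tested by interaction terms in the same model. Against Input, 11 members lay higher in Polysome1 and 21 lower, or 0.125% and 0.238% of members, where 2.57% and 0.112% of all tested transcripts were called in these directions. The 11 had a median difference of 1.62 in Polysome1 and -1.06 in Input. This split depended on the setting. Quantile normalization gave 7 higher and 80 lower, median-of-ratios scaling 2 and 45, and a pseudocount of 0.1 gave 3 and 41. With the 2 fractions alone it was 0 and 12, and with a filter at 10 TPM 0 and 4. The median Polysome1 levels of the 11 were 11.7, 10.4 and 8.68 TPM in WT and 45.8, 27.0 and 18.7 TPM in KO, without overlap between the genotypes in any of the 11. In Input the medians were 25.2, 27.0 and 40.6 TPM in WT and 5.02, 8.82 and 27.9 TPM in KO. The 11 were thus low in the Input of KO replicates 1 and 2, while KO replicate 3 lay within the WT range there. Under ERCC scaling their Polysome1 median turned to -2.52. The count against Input also rested on single cultures: 32 in all, it was 12, 5 and 359 without KO replicates 1, 2 and 3, and 9, 13 and 12 without WT replicates 1, 2 and 3.

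By their medians, the 21 members on the other side were near 0 in WT Input and not in KO Input. Their medians there were 0, 0.179 and 0.000218 TPM in WT and 34.3, 37.8 and 14.1 TPM in KO. In Polysome1 they were 77.8, 73.9 and 47.4 TPM in WT and 46.8, 63.3 and 73.2 TPM in KO, with a median log2 difference of 0.13. By these medians the genotypes differed more in Input, where the median log2 difference was 4.55, than in Polysome1. This did not hold for each member. Of the 21, 19 were called higher in KO Input, and 1 lay below 1 TPM in all KO Input libraries. In Polysome1, 6 of the 21 lay above WT without overlap and 3 below. The Polysome1 median turned to -4.08 under ERCC scaling.

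The Polysome1 difference was not separated by the test from those in disome and Polysome2. Against disome, limma called 0 members (0% of all tested transcripts), with 323 at an unadjusted p under 0.05, and the median interaction over members was 0.55. Against Polysome2 it called 0 members (0.00784% of all tested), with 120 at an unadjusted p under 0.05 and a median of -0.04. The median SE of an interaction was 1.16 on the log2 scale, so a departure of several-fold in a single member may pass unseen. Of the Polysome1 members, 81.2% passed the same 10 TPM rule in disome and 84.1% in Polysome2, which is 93.5% of the disome list and 81.4% of the Polysome2 list.

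At the edge of the rule, the third-highest of the 6 values was 10.0002 TPM for the member just inside and 9.998 TPM for the transcript just outside. There were 529 members between 10 and 11 TPM by that value and 617 transcripts between 9 and 10 TPM. Not all members are separate measurements: 520 had values identical to another tested transcript in all 36 libraries. The 8830 members held 8511 distinct sets of values, and the 229 and 239 called members 223 and 232.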

How the data were processed

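The deposited table held TPM per Ensembl transcript for 36 libraries (2 genotypes, 6 fractions, 3 cultures each), with 92 ERCC rows. The submitters' processing notes name kallisto, sleuth and hg19; versions, filters and depth are not given in the sources used here. All 36 columns matched a sample description and none was left unused. Groups and replicate numbers came from the titles. The planned naming of genes and tests of gene lists could not be made, since the files do not pair IDs with genes. Members, lists and tests were chosen with earlier results of these data known.

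The test covered 51052 transcripts that reached 1 TPM in 3 or more of the 36 libraries. limma 3.58.1 in R 4.3.3 was fitted to log2(TPM + 1) across all of them with 12 group means, a variance trend and 24 residual degrees of freedom, with Benjamini-Hochberg adjustment over all transcripts of a comparison. A log2 difference on this scale understates changes of low transcripts. The fit takes libraries of 1 culture as independent. It was tested on simulated data. Called members without overlap were ranked by difference, and the first 2 in each direction were named. Composition was compared by exact permutation tests in Python 3.11.15. Alternatives were the 6 Polysome1 libraries alone, the pseudocount, the filter, 3 scalings, cultures left out and replicate blocks.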

Additional observations from a re-analysis of the deposited data

Results flagged for a closer look

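The genotype difference departed from that in Input, by the interaction test, in 11 members that lay higher in Polysome1 and 21 that lay lower (limma, Benjamini-Hochberg adjusted p under 0.05). Quantile normalization gave a split of 7 and 80, median-of-ratios scaling 2 and 45, and the 2 fractions alone 0 and 12. The ERCC spike-in rows, which enter the comparison of transcripts only as an alternative scaling, summed to a mean of 219.6 TPM in KO Polysome1 and 9.55 TPM in WT, and their part in the transcript differences was not tested.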

How the results depend on the processing

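The count of 468 members called in Polysome1 was 0 with the 6 Polysome1 libraries alone, 88 with a pseudocount of 0.1 (61 higher, 27 lower), 160 without a filter, 198 after median-of-ratios scaling, 10 without KO replicates 1 and 2, and 8189 after ERCC scaling. It stayed within 1.5 times with a filter at 10 TPM (315) and after quantile normalization (389). Leaving out 1 culture gave 5 to 4373: 38, 5 and 4373 without KO replicates 1, 2 and 3, and 58, 35 and 58 without WT replicates 1, 2 and 3. The median member difference moved from -0.74 to -4.77 after ERCC scaling and turned to 0.14 without KO replicates 1 and 2.

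Same-numbered WT and KO libraries deviated together at r of -0.07, 0.10 and 0.15 over members, so the numbers were not taken to pair cultures. With the number as a replicate block 1289 members were called (454 higher, 835 lower), and with culture as a random replicate block 1697 (409 higher, 1288 lower; correlation 0.33). For the difference from Input these blocks gave 51 and 177 against 32; the 2 fractions alone gave 12, the 10 TPM filter 4, quantile normalization 87, and leaving out 1 culture 5 to 359. Against disome the count of 0 became 1 with the 2 fractions alone and 0 to 2 with 1 culture left out; against Polysome2 it became 1, 0 to 5, and 3 with culture as the replicate block.

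No direction of the 4 named transcripts turned in 16 alternatives each, but most of these could not turn one. The 4 were chosen without overlap between genotypes, so leaving out cultures or changing the pseudocount keeps the direction. The Polysome1 libraries alone, the filters and the replicate blocks left the difference itself unchanged. Only the scalings could have turned a direction. Of the 16 alternatives, a call was made in 4 for ENST00000579468.1, 9 for ENST00000387460.2, 12 for ENST00000474657.5 and 14 for ENST00000526811.4. The sum over the transcripts of a gene was not run, since no table pairs them. The bands by WT 40S level were left without each culture in turn after seeing the data. The cause of these movements was not tested.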
